A study of Mus musculus with 3 samples.

Results

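Cornified envelope genes encode the proteins that keratinocytes deposit under the plasma membrane and cross-link as they die to form the outer skin barrier. The set described here has 8 genes, Ivl, Lor, Flg, Sprr1a, Sprr1b, Sbsn, Krtdap and Tgm3, chosen by name. They encode structural, secreted and cross-linking proteins of the envelope, and the keratins of the periderm are given as a separate list. The 8 were measured by 11 probe sets annotated with exactly 1 gene, of 28898 such probe sets and 17097 genes on the array. Expression was profiled on 3 Affymetrix arrays of mouse embryonic mammary cells at embryonic day 14. The cells were sorted by flow cytometry for high CD49f (the integrin alpha 6 chain, a basal epithelial surface protein) and high green fluorescence. The embryos were female and carried a green fluorescent reporter at the locus of Lgr5, a Wnt target gene (Lgr5-IRES-GFP). The female embryos of a litter were pooled for 1 array, which makes the 3 arrays biological replicates of 1 group, with no second group beside it. Epidermis and mammary gland were digested together, and each sort gave 813 or 2000 cells, without a label saying which array had which number.

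In stratified epithelium, basal cells leave the basement membrane, switch keratins and then switch on the envelope genes in sequence. Involucrin is laid down early as a scaffold, loricrin and the small proline-rich proteins are added later, and transglutaminases join them by covalent bonds. Filaggrin bundles keratin filaments, and suprabasin and Krtdap are secreted proteins of suprabasal cells. Until the barrier is complete, the embryo is covered by the periderm, a transient outer layer of flattened cells that express simple keratins. The mammary bud grows from the same surface ectoderm.

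Of the 8 genes, 2 were above background, Sbsn and Tgm3, which is 25% against 52.5% of all 17097 genes. Background was the 95th percentile of 78 olfactory and vomeronasal receptor genes on the same array; for replicates 1, 2 and 3 it stood at 6.29, 6.23 and 6.22 (log2). A gene was called above background when its mean distance from that threshold passed an adjusted p of 0.05 (limma, one-sided, Benjamini-Hochberg over all genes). The same threshold called 13 of 49 measured genes that are specific to other tissues (Alb, Ins2 and Prm1 among them), so a call says that a probe set was brighter than the receptor genes and not that the gene was expressed. The median distance was -0.30 log2 units over the 8 genes and 0.63 over all genes. Both calls were lost when these tissue-restricted genes, or the brightest antigenomic control probe set, set the threshold. These thresholds leave 29.8% and 31.6% of all genes above background, and with either of them 0 of the 8 genes were called by limma and 0 had an unadjusted p under 0.05. With the 99th percentile of the receptor genes 1 of the 8 was called, Sbsn, against 45.8% of all genes. In RNA of pooled cells, a low signal from few cells cannot be told from a low signal in each cell.

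The promoters of 6 of the 8 genes are printed to show the sequence that the genes share and do not share ahead of their values. They cover both genes above background and the 4 others whose promoter holds an AP-1 motif, the binding sequence of Fos and Jun dimers and a known element of envelope genes. Each stretch runs 5′ to 3′ on the gene's strand, from 150 bases before the annotated start to the first base of the gene, and comes from RefSeq on GRCm38.p6, in which all 8 genes matched by symbol. Capitals mark the AP-1 motif (TGAGTCA or its reverse complement TGACTCA) and a TATA motif (TATAAA), both searched on both strands. No AP-1 match overlapped a TATA match. The Sbsn stretch is chr7:30751321-30751471 on the plus strand and the Tgm3 stretch is chr2:130012190-130012340 on the plus strand. Krtdap lies at chr7:30787755-30787905 on the plus strand. On the minus strand are Lor (chr3:92083142-92083292), Ivl (chr3:92573735-92573885) and Sprr1a (chr3:92485881-92486031).
Sbsn: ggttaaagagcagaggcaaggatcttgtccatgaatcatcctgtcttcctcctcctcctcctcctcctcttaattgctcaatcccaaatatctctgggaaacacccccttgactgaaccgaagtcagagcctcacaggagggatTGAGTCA
Tgm3: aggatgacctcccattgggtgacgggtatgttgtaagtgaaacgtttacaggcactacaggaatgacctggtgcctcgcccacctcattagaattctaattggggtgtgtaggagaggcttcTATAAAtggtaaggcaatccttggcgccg
Krtdap: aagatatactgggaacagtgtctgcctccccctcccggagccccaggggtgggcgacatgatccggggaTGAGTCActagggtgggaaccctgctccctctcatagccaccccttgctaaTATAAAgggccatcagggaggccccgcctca
Lor: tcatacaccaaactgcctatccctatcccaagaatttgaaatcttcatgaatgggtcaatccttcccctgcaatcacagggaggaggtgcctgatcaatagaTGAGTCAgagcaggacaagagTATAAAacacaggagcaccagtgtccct
Ivl: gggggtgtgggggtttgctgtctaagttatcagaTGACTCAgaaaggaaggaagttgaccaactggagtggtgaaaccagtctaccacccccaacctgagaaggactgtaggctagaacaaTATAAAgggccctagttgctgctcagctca
Sprr1a: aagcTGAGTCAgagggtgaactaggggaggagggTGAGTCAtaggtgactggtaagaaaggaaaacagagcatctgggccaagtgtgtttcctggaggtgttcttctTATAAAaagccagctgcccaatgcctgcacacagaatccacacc

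Over the full 300 bases that the RefSeq table gives per promoter, 5 of the 8 genes held an AP-1 motif, against 5.2% of 32851 promoters of that length. The matches began at -48 in Lor, -81 in Krtdap, -116 in Ivl, -6 in Sbsn, and -146 and -116 in Sprr1a, counted from the annotated start. A TATA motif lay in the 300 bases of 7 of the 8 genes, against 13.6% of promoters, and Sbsn was the exception. The Grainyhead motif AACCGGTT was in 0.146% of promoters, so rare that its absence from all 8 genes says nothing about them. Of the 2 genes above background, Sbsn had an AP-1 motif and Tgm3 had none. These motifs were chosen with the values known, and a match is a description of the letters only.

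Ivl, Lor and Flg, genes of the early scaffold, the bulk protein and the keratin-bundling protein, did not pass the test. Ivl, the involucrin gene, read 6.57, 6.54 and 6.32 (log2; replicates 1, 2 and 3) with its brighter probe set. All 3 lay above the threshold of their array, by 0.27, 0.30 and 0.10, and the mean distance of 0.22 did not pass the test (SE 0.12, adjusted p = 0.119). Only 1, 1 and 4 of the 78 receptor genes were brighter on the same arrays. Its other probe set read 4.84, 4.89 and 4.95, which was 1.33 below the threshold of the probe sets, so the 2 probe sets of Ivl fell on opposite sides. Ivl was called without replicate 3 (distance 0.29, adjusted p = 0.00787) and when receptor pseudogenes were dropped from the background (0.37, adjusted p = 0.0265).

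Lor, which encodes loricrin, the glycine-rich main component of the mature envelope, read 5.70, 5.87 and 5.58. Each array placed it below the threshold (distance -0.53, SE 0.12), and 7 to 11 receptor genes were brighter. Flg, the profilaggrin gene, read 3.85, 3.84 and 4.15, with a distance of -2.30 (SE 0.10). On each array at least 71 of the 78 receptor genes were brighter than Flg, so its probe set sat at the low end of the background itself. Neither gene was above background in any of the 11 alternative settings that measured it.

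The small proline-rich proteins bridge other envelope proteins and rise in wounded and stressed epithelium. Sprr1a read 5.92, 5.93 and 6.25, below the threshold on replicates 1 and 2 and 0.02 above it on replicate 3 (mean distance -0.22, SE 0.13). Sprr1b read 5.21, 5.20 and 5.30, below the threshold on every array (mean distance -1.01, SE 0.10). For Sprr1b, 17 to 19 receptor genes were brighter, and for Sprr1a 4 to 7. Neither passed the test in any alternative that measured it.

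**Figure D1:**
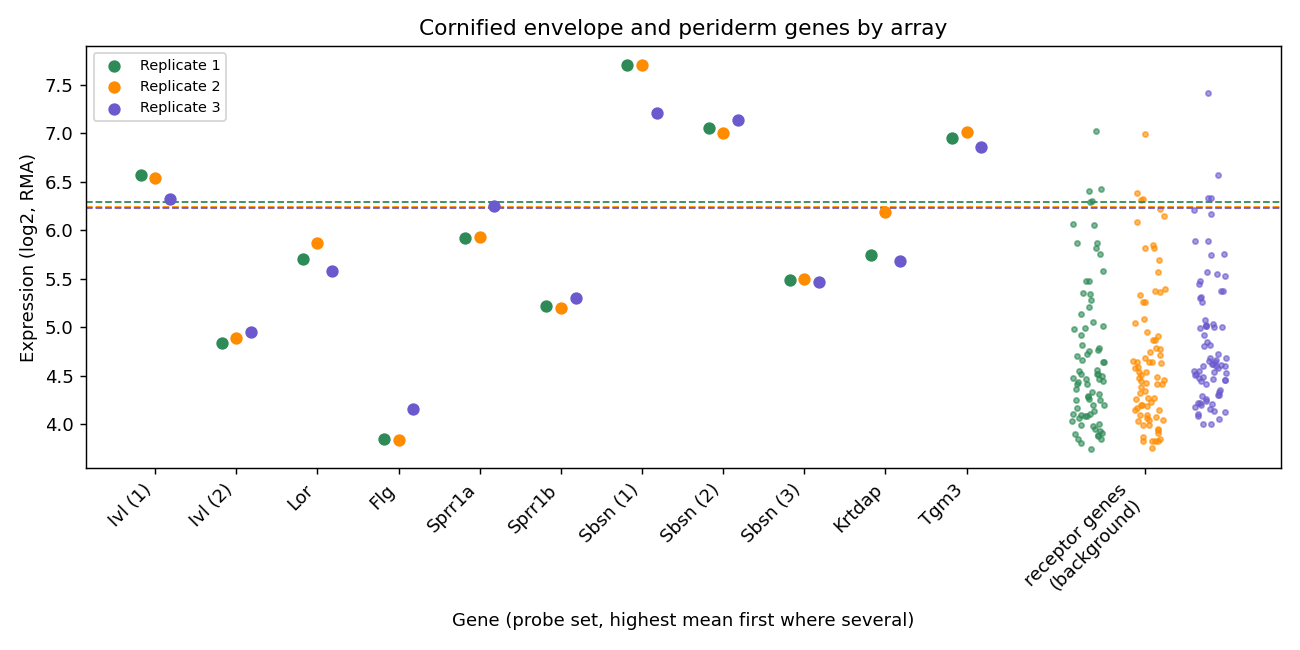
Log2 expression of the 11 probe sets of the 8 genes (x axis, 1 point per array) beside the 78 receptor genes that set the background, with each array's threshold as a dashed line in its colour. Sbsn, with its 2 brighter probe sets, Tgm3 and the brighter Ivl probe set lie above the lines on every array, and Flg lies at the low end of the receptor genes.

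Sbsn, which encodes suprabasin, was the gene of the set furthest above its threshold. Its brightest probe set read 7.70, 7.70 and 7.20 on replicates 1, 2 and 3, above the threshold on each by 1.41, 1.47 and 0.98. The mean distance was 1.29 (SE 0.16, adjusted p = 0.000915), and 0, 0 and 1 receptor genes were brighter. That probe set carries the manufacturer's mark for probes that may match other sequences. A probe set marked for alternative transcripts of 1 gene read 7.06, 7.004 and 7.14, and at probe set level it was above background too (distance 0.84, adjusted p = 0.00305). The third read 5.49, 5.50 and 5.47 and lay 0.74 below the threshold on average. Without the marked probe set the gene was still called, with a distance of 0.83 (adjusted p = 0.00240). Against the tissue-restricted genes its distance was 0.17 (adjusted p = 0.471), and against the brightest antigenomic control 0.15 (adjusted p = 0.587).

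Krtdap, which encodes a small secreted protein of differentiating keratinocytes, read 5.74, 6.19 and 5.68. It was below the threshold on all 3 arrays, by 0.55, 0.04 and 0.55, and its value on replicate 2 was the nearest to it. The mean distance was -0.38 (SE 0.15), and no alternative setting called it. Sbsn and Krtdap flank a gene of the same kind, Dmkn (dermokine), with no other protein-coding gene between them in RefSeq. Dmkn read 8.21, 9.15 and 8.998 and was above background (distance 2.54, SE 0.24, adjusted p = 0.000301) in each of the 12 alternatives. So of the 3 neighbours 2 were above background, against 52.5% of all genes, and Krtdap was not. Dmkn was named after its values were seen.

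Tgm3, the epidermal transglutaminase that cross-links loricrin and the small proline-rich proteins, read 6.95, 7.01 and 6.86. The 3 values lay 0.66, 0.78 and 0.63 above their thresholds (mean distance 0.69, SE 0.13, adjusted p = 0.00373), and 1, 0 and 1 receptor genes were brighter. This call was lost with the 99th percentile of the receptor genes (0.33, adjusted p = 0.0937) and without replicate 2 (0.65, adjusted p = 0.0539). Its distance was negative against the tissue-restricted genes (-0.42) and against the antigenomic control (-0.44). At probe set level, 3 of the 11 probe sets were above background, 2 of Sbsn and the 1 of Tgm3, against 47.2% of all probe sets of 1 gene.

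**Figure D2:**
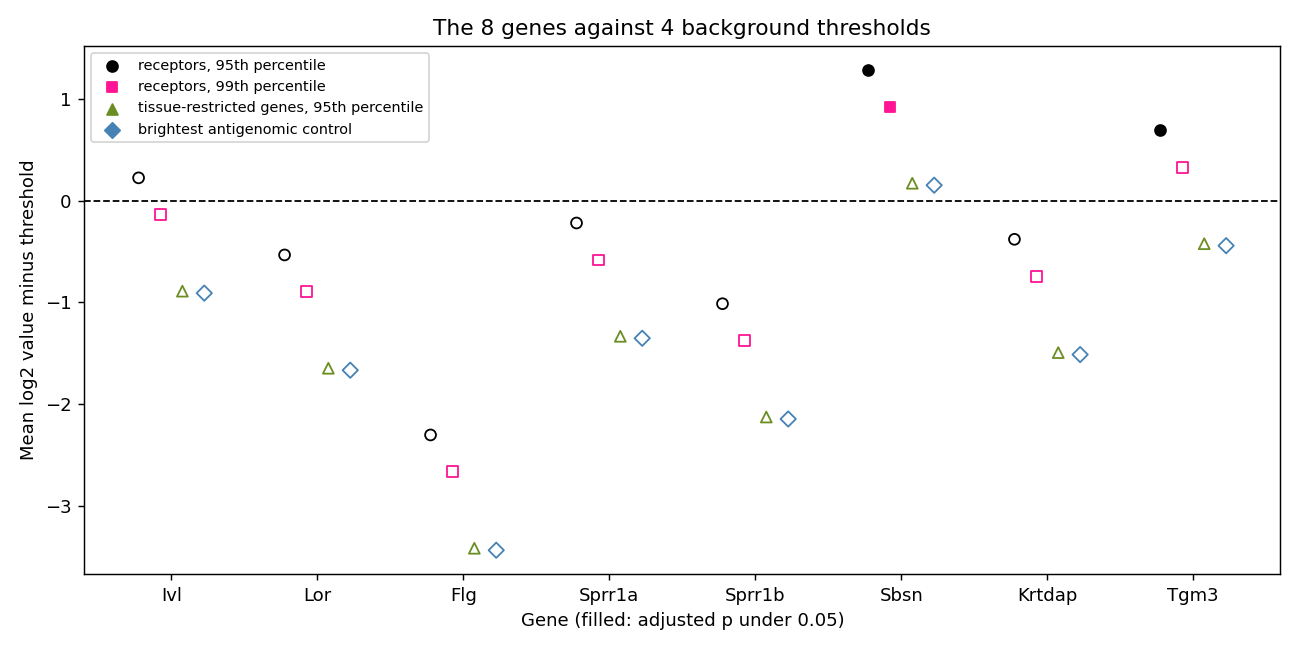
Mean distance of each of the 8 genes from 4 background thresholds, in log2 units on the y axis, with filled symbols where the adjusted p was under 0.05 (limma). Sbsn and Tgm3 are filled with the 95th percentile of the receptor genes, Sbsn alone with the 99th percentile, and no gene with either of the other thresholds.

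Each gene's spread over the litters is given as its range, which for the 6 genes not above background describes weak signals that RMA compresses. The range over the arrays went from 0.10 log2 units for Sprr1b to 0.51 for Krtdap, with a median of 0.30, and the median over all genes was 0.44. Krtdap was highest on replicate 2, and the brightest Sbsn probe set was lower on replicate 3 than on the others by 0.50. The other Sbsn probe set above background was not lower there, with 7.06, 7.004 and 7.14. None of the 8 stood 1 log2 unit or more from the mean of the other 2 arrays in either direction. Over all genes, 9.36% stood that far above on replicate 3 and 1.35% that far below, against 0.158% above and 1.51% below on replicate 1, and 0.175% above and 1.17% below on replicate 2. Each litter was on 1 array, so these differences have no replicate and were not tested.

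Replicate 3 had a higher overall level, with a median over all genes of 7.02 against 6.83 and 6.82. Relative to the mean of replicates 1 and 2, replicate 3 was higher for Flg (0.31), Sprr1a (0.32) and Sprr1b (0.09) and lower for Ivl (-0.23), Lor (-0.20), Krtdap (-0.29), Tgm3 (-0.12) and Sbsn (-0.50). With the arrays quantile normalized, the differences of the 5 lower genes were -0.50, -0.44, -0.52, -0.42 and -0.83 in the same order. Flg (0.04) and Sprr1a (0.07) then differed by under 0.1, and Sprr1b turned negative (-0.17). In this scale the median range was 0.48, and the brightest Sbsn probe set read 7.83, 7.83 and 7.001. With the probe sets of each gene averaged, and no quantile normalization, the Sbsn difference was -0.14.

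Likeness of patterns over the arrays was taken as the distance between deviations from each gene's own mean. For Sbsn it used the brightest probe set, whose pattern the other probe set above background did not share. The genes most like that brightest probe set were Nsrp1 (9.62, 9.62 and 9.12), Kif22 (7.33, 7.33 and 6.84) and Nudt9 (8.93, 8.93 and 8.42). For Sprr1a they were Gk2 (4.49, 4.50 and 4.82), Prr23a3 (4.17, 4.18 and 4.50) and Cst10 (4.27, 4.28 and 4.60). Likeness over 3 arrays is weak: 576 genes lay within a distance of 0.1 log2 units of Sbsn and 1877 of Sprr1a.

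Lor, Sprr1b, Sprr1a, Ivl and Flg lie in the epidermal differentiation complex, a cluster of envelope genes on chromosome 3 that is switched on in stratified epithelium. RefSeq lists 47 protein-coding genes from Lor to Flg, of which 30 were measured and 6 were above background, against 52.5% of all genes. The 5 genes of the set contributed 0 of these 6, with 0 at an unadjusted p under 0.05 (limma), and the other 25 contributed the 6. The median distance from the threshold was -1.06 over the 30 genes, against 0.63 over all genes. This stretch was chosen after the values were seen.

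Of the 6 genes above background, Lelp1 and Sprr2a1 were neighbours, as were Lce3b and Lce3c, and the other 2 had no measured neighbour above background. Sprr2a1, a further small proline-rich gene, read 8.05, 8.29 and 8.57 (distance 2.05, adjusted p = 0.000200), and Sprr2k read 7.49, 7.44 and 7.67 (1.29, adjusted p = 0.000513). The late cornified envelope gene Lce3c read 9.48, 9.35 and 9.41 (3.16, adjusted p = 2.10e-05) and its neighbour Lce3b 7.83, 7.62 and 7.13 (1.27, adjusted p = 0.00133). Lce1i (0.34, adjusted p = 0.0405) and Lelp1 (0.35, adjusted p = 0.0396) lay just above the threshold. The probe sets of Lce3c, Lce3b and Lce1i are marked as possibly matching other sequences, and genes of the Sprr2 and Lce families are near copies of each other, so which member gave the signal is uncertain. Of the 6, Sprr2a1 and Lce3c were also above the tissue-restricted threshold, which 29.8% of all genes passed.

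**Figure D3:**
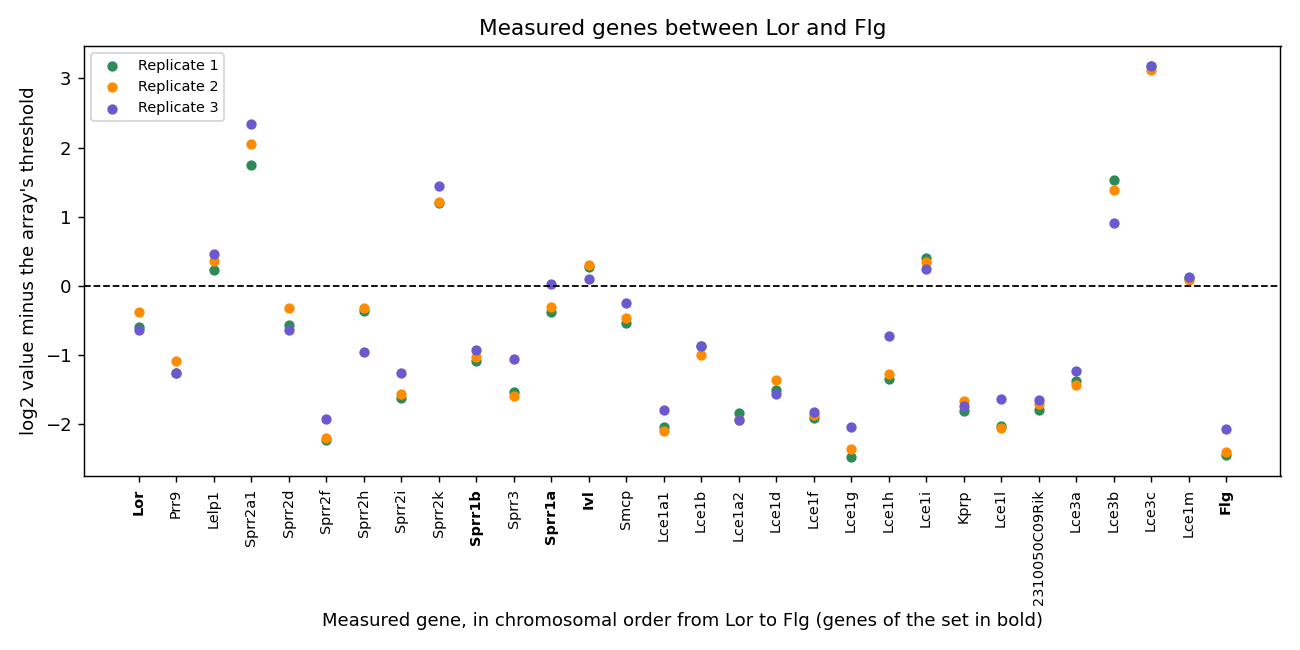
Log2 value minus the array's threshold for the 30 measured genes from Lor to Flg, in chromosomal order on the x axis, 1 point per array, with the 5 genes of the set in bold. Most points lie below the dashed line at 0, and Sprr2a1, Sprr2k, Lce3b and Lce3c stand more than 1 log2 unit above it on average.

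The counts of the lists that follow stand against 52.5% of all genes and a median distance of 0.63. Other genes of the envelope and its gene cluster outside the set were above background in 12 of 37 measured cases, with a median distance of -0.91. Dmkn and the 6 genes above background from Lor to Flg, given before, are among these 12. So are the plakin genes Evpl (7.66, 7.71 and 7.52; distance 1.38, adjusted p = 0.000347) and Ppl (7.44, 7.34 and 7.49; 1.17, adjusted p = 0.000593), whose products line the membrane and tie it to desmosomes. Cnfn, the cornifelin gene, was above background by 0.58 (adjusted p = 0.0213), while the protease inhibitor genes Cst6 (distance -0.17), Csta1 (-1.28) and Stfa3 (-1.50) were not. S100a10 (10.41 ± 0.64, SD, n = 3) and S100a11 (12.20 ± 0.16) were among the 12 and are widely expressed outside skin. Of 12 measured S100 genes, 4 were above background, these 2 with S100a16 and S100a6, and S100a1, S100a3 and S100a4 were not.

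Cross-linking and lipid genes were above background in 7 of 19 cases (median distance -0.03). Tgm1, the membrane-bound transglutaminase of keratinocytes, read 7.11, 7.27 and 6.35, lower on replicate 3, and was called (distance 0.66, adjusted p = 0.0288). Tgm2, the widely expressed tissue transglutaminase, read 7.74, 7.38 and 6.73 (1.03, adjusted p = 0.00654), though its second probe set was not above background. Tgm5 (-0.95) was not called, so 3 of the 4 transglutaminase genes examined, Tgm3 among them, were above background. With the tissue-restricted genes or the antigenomic control as threshold, 29.8% and 31.6% of all genes were called by limma. Among the 4, 0 were called and 0 had an unadjusted p under 0.05. The protease genes St14 (matriptase, 2.24) and Asprv1 (0.98), the lipase cofactor gene Abhd5 (1.57) and the fatty acid transporter gene Slc27a4 (1.41) were above background, and Sult2b1 (-1.03) and Alox12b (-0.38), an epidermal lipoxygenase gene, were not.

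Among desmosome genes 5 of 12 were above background (median distance 0.15). Dsp, the desmoplakin gene (5.31), Perp (4.03) and Dsg2 (3.22) were among the 5. Genes of differentiated layers, Dsg1a (-2.17), Dsg1b (-2.01) and Dsc1 (-1.87), were not above background. Nor were Cdsn (-0.41), Spink5 (-2.05), Dsc2 (-0.73) and Pkp1 (0.71, limma adjusted p = 0.0719). Klk7, a protease gene of shedding skin cells, was called (7.62, 7.87 and 7.89, distance 1.54, adjusted p = 0.000325). Dsc3 varied with its brighter probe set, with 7.43, 8.19 and 6.29 (1.05, adjusted p = 0.0388). Its other probe set read 5.22, 5.96 and 5.95. That was below the threshold on average (distance -0.52 at probe set level) and not lowest on replicate 3.

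Of 10 suprabasal keratin genes, 2 were above background, with a median distance of 0.13. Krt78 read 8.16, 8.11 and 7.97 (distance 1.83, adjusted p = 0.000128). Krt10, a keratin of differentiating epidermis, was highest on replicate 3, 1.86 log2 units above the mean of the other arrays. The brightest Sbsn probe set was lowest on that array, and the other Sbsn probe set above background was highest on it. Krt1, the partner of Krt10, read 6.28, 6.94 and 6.75 and was not called (0.40, adjusted p = 0.0751). Krt2 (-2.16) and Krt77 (-0.77) were not above background. Between 1 and 5 of the 10 were called over the alternatives, and 5 without replicate 3.

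Periderm genes were above background in 6 of 10 cases, near the share of all genes (median distance 1.92). The simple keratin genes Krt8 (3.82), Krt18 (2.63) and Krt19 (1.18), the 14-3-3 sigma gene Sfn (2.52), Grhl3 (3.27) and the claudin gene Cldn6 (4.32) made up the 6. Krt8, Krt18, Krt19, Cldn6 and Sfn are also expressed in other embryonic epithelia. Krt4 read 8.96, 8.26 and 5.50, above the threshold on replicates 1 and 2 only, and was not called (1.32, adjusted p = 0.104). Its second probe set was also lowest on replicate 3 (7.21, 6.71 and 5.74). Krt4 was called in 2 of the 12 alternatives. Without replicate 3, 8 of the 10 periderm genes were above background, against 56.3% of all genes. Krt13 (-0.79) and Gabrp (-0.32) were not called.

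Regulators of keratinocyte differentiation were above background in 20 of 23 measured cases, with a median distance of 2.48. Klf4, a transcription factor gene needed for the skin barrier, read 9.97, 10.05 and 10.16 (distance 3.81, adjusted p = 1.37e-05), and Ovol1, a repressor gene of early differentiation, 10.70, 10.88 and 10.21 (4.34, adjusted p = 1.92e-05). Grhl3, a Grainyhead factor gene of barrier formation and of the periderm, read 9.36, 9.62 and 9.58 (3.27, adjusted p = 2.51e-05), and Grhl1 6.97, 7.25 and 7.72 (1.06, adjusted p = 0.00405). Gata3 (2.06) and Zfp750 (1.29), a p63 target that drives terminal differentiation, were above background too. The AP-1 subunit genes on this list, Fosl1 (8.55, 9.07 and 8.94; distance 2.61) and Junb (8.19, 8.66 and 8.87; 2.32), were above background on the same arrays. Prdm1 (-0.11), Maf (-1.88) and Hopx (-0.43) were not. Over the 12 alternatives, 15 to 20 of the 23 were called. With the tissue-restricted genes as threshold 15 were called, against 29.8% of all genes. Grhl1, Gata3, Zfp750, Cebpb and Tfap2c were not among the 15. The list holds Trp63, also given below as a basal epithelial gene, so it is not particular to differentiating cells.

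**Figure D4:**
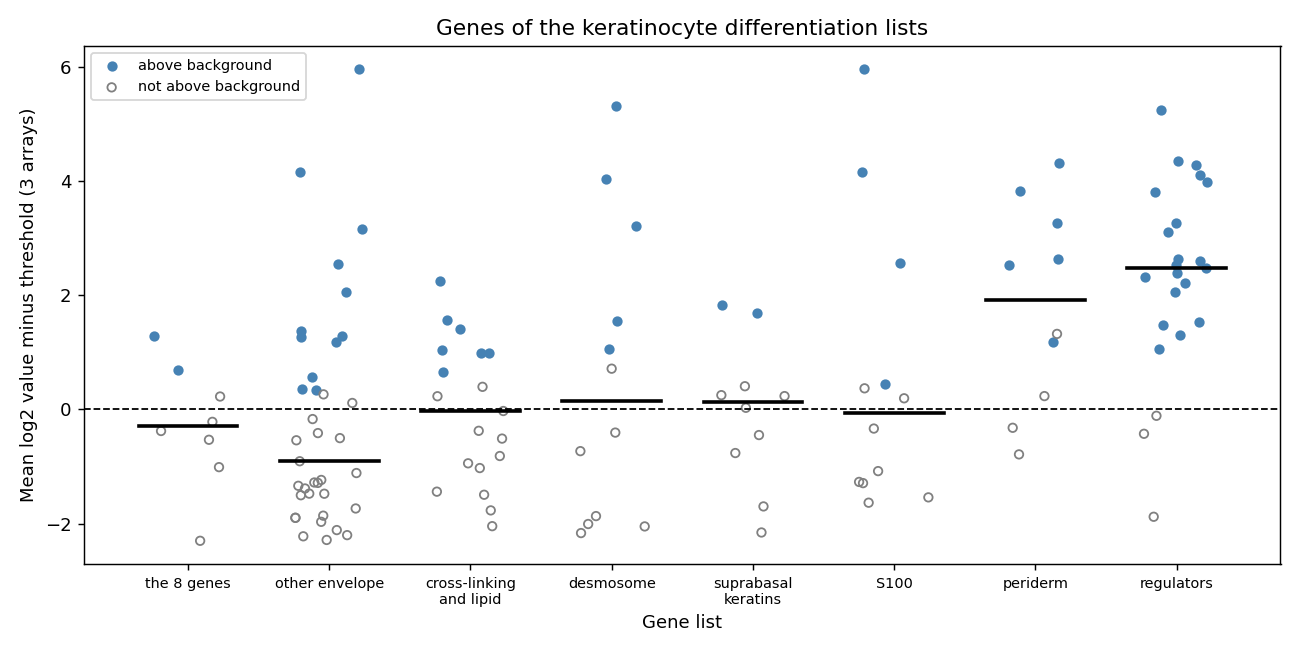
Mean log2 value minus the threshold over the 3 arrays for each measured gene of the 8 genes and 7 lists, with filled points above background and a bar at the median. The regulators lie highest, with a median of 2.48, and the 8 genes (-0.30) and the other envelope genes (-0.91) have medians below the threshold; S100a10, S100a11, Grhl3, Sfn and Krt6a stand on 2 lists.

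Lgr5 and Itga6, the genes behind the sort, and the basal epithelial genes Trp63, Krt5 and Krt14 were above background, 5 of 5, with distances from 4.02 to 5.90. Dermal mesenchyme genes were above background in 9 of 10 cases, with list medians of 10.64, 10.43 and 10.45 on replicates 1, 2 and 3, and Pdgfra was the exception. Leukocyte genes reached 2 of 9, endothelial genes 2 of 7, and melanocyte and Merkel cell genes 2 of 8. With the tissue-restricted genes or the antigenomic control as threshold these became 1, 0 and 1 (limma), against 29.8% and 31.6% of all genes. Of the endothelial genes, 0 then had an unadjusted p under 0.05. The part of these other cell types in the signals of Sbsn and Tgm3 was not tested.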

How the data were processed

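The authors deposited 1 table of log2 expression values, made with RMA and affy per the submitters' processing notes; versions and settings are not given in the sources used here, and per the labels' protocols, cDNA was amplified for 25 cycles before labelling. RMA in general compresses differences of weak signals. Of 45141 probe sets, 28898 had 1 gene symbol in the platform annotation, and 551 with several and 15588 with none were left out, as were 104 controls. A gene was represented by its probe set with the highest mean. Each array's threshold was the 95th percentile of the genes whose symbol begins with Olfr, Or and a digit, Vmn1r or Vmn2r. The distance of each gene from the threshold was tested, as a mean above 0, in limma 3.58.1 (R 4.3.3; intercept only, empirical Bayes with a trend, one-sided, Benjamini-Hochberg over 17097 genes, no filter on low values), tested first on simulated data. In the simulated data, 48% of genes set 0.25 log2 units above the threshold were called, and 76% of those set 0.5 above. At 1 and 2 log2 units above it, 92% and 100% were called. A gene that lies just above the threshold can therefore go uncalled. The p-values leave out the uncertainty of the threshold, and the number of arrays limits the precision. Alternatives changed the threshold, probe set choice, normalization, filter, trend and replicates.

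The genes and lists were chosen with earlier results of these data known. Named were the 8 genes, Lgr5, Itga6, Trp63, Krt5 and Krt14, the first 6 genes above background and the first 3 others of each list, and the 3 genes most like each of the 2 genes of the set with the largest range among those above the threshold on some array. Fosl1, Junb, Lce3b, Lce3c, Lelp1, Dmkn and others outside that rule were named after their values were seen. Python 3.11.15 drew figures and searched promoters. List members without a probe set of 1 gene were not analysed here.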

Additional observations from a re-analysis of the deposited data

How the results depend on the processing

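The count of 2 genes above background was 1 with the 99th percentile of the receptor genes and 0 with the tissue-restricted genes or the brightest antigenomic control. Leaving out 1 replicate gave 1 to 3 genes, the 1 being without replicate 2. Tgm3 changed to -0.42 and -0.44 with these 2 thresholds, which lie higher than the main one. At probe set level the count of 3 became 0 with both of them (limma, adjusted p under 0.05). The brightest Sbsn probe set had the lowest adjusted p, 0.328 with the tissue-restricted genes and 0.682 with the antigenomic control. With tissue-restricted genes and with the antigenomic control, 29.8% and 31.6% of all genes were called. Other envelope genes then fell to 5 and 5, cross-linking and lipid genes to 1 and 1, and suprabasal keratins to 1 and 1. With the 99th percentile, which called 45.8% of all genes, cross-linking and lipid genes fell to 4. Desmosome genes fell to 3 with tissue-restricted genes. Suprabasal keratins numbered 4 when the probe sets of each gene were averaged, 5 without receptor pseudogenes (chosen after seeing the data), and 2 to 5 without 1 replicate. The median range of the 8 genes moved from 0.30 to 0.479 with quantile normalization. The counts of regulators, periderm and S100 genes stayed within 1.5 times in all 12 alternatives. All genes above background numbered 8972, and 5088 with tissue-restricted genes. No paired analysis was possible because there was 1 group.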
